A study of Drosophila melanogaster with 3 samples.

Results

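The 10 genes described here control the formation of mesoderm and muscle in the fly embryo, and they were taken by symbol from the Ensembl gene models (Mef2, tin, bap, bin, nau, htl, stumps, lmd, how and mbc). They are 10 of the 13945 protein-coding genes on the 6 main chromosome arms. For each of them the regions bound by CG5245, a zinc finger protein, were read from the deposited peak lists. A summit, the base of highest signal in a region, was counted when it lay within 500 bp of a transcription start site (TSS) of the gene, or within 10 kb of the gene. The data are chromatin immunoprecipitation followed by sequencing (ChIP-seq) from whole Drosophila melanogaster embryos of both sexes aged 0 to 16 h, with 3 biological replicates in 1 group. Every embryo carried a transgene that expresses CG5245 with GFP fused to its C terminus, and per the description in the labels the antibody was against GFP, although their antibody field reads CG5245. The promoter that drives the transgene is not given in the sources used here. No wild-type or untagged group was part of the lists, so no contrast between conditions was made, and the shared control was not analysed here. All cell types of the embryo were mixed, and regions bound in a few mesoderm cells cannot be told apart from weak binding in many cells.

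The mesoderm of the fly embryo arises from ventral cells under the transcription factor Twist and spreads under the skin layer by fibroblast growth factor (FGF) signalling. It is then divided into heart, gut muscle and body wall muscle by a small set of transcription factors. Body wall muscles form when founder myoblasts, which carry a muscle's identity, fuse with fusion-competent myoblasts. Among the 10 genes, Mef2 encodes the MADS-box factor of muscle differentiation and tin an NK homeobox factor of heart and dorsal mesoderm. The genes bap, an NK homeobox gene, and bin, a FoxF forkhead gene, specify gut muscle, and nau encodes the fly relative of MyoD. The FGF receptor of the mesoderm is encoded by htl and its intracellular adaptor by stumps. A Gli-like zinc finger factor of fusion-competent myoblasts is encoded by lmd, a STAR family RNA-binding protein of muscle and tendon by how, and a Rac activator of the DOCK family that is needed for myoblast fusion by mbc.

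CG5245 was found near 9 of the 10 genes, and at the promoters of 4. The promoters were those of tin, htl, stumps and mbc, with 5 summits of the authors' reproducible set, which was made with the irreproducible discovery rate (IDR). Of all protein-coding genes, 15.8% had such a promoter summit. Within 10 kb, 9 of the 10 genes had at least 1 reproducible summit and bap had none, and 56.2% of all protein-coding genes had one by the same rule. The 9 genes had 25 summits in all, which overlapping entries reduce to 23 separate regions. The 10 genes are longer than most, with a median length of 6656.5 bp, against 2166 bp for all protein-coding genes, and a longer gene has a wider window. Among the genes within 1.5-fold of the length of each, the share with a summit within 10 kb ranged from 55.6% for bap to 68.3% for mbc. Per 100 kb of window there were 6.94 summits for the 10 genes and 3.94 for all protein-coding genes. The weaker candidate regions, which the authors list together with background, were also denser in these windows, with 40.0 pooled candidates per 100 kb for the 10 genes and 26.9 for all protein-coding genes. Whether the density of candidates plays a part in the higher count of summits was not tested.

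The sequence at 11 of the summits is given here before their values. The 101 bp around each summit are shown on the plus strand of the Release 6 assembly (dm6), from the RefSeq copy of that genome. The opening 5 windows are the promoter summits. The other 6 are the strongest summit outside the gene's own promoters for stumps, mbc, bin, nau, lmd and how, and none is shown for Mef2. Capitals mark matches to the 10 motifs searched, described further below, and windows without capitals hold none.
tin, 252 bp upstream of its TSS (chr3R:21378675-21378775): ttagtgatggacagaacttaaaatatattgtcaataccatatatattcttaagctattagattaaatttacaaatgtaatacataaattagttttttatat
htl, 295 bp upstream of its internal TSS (chr3R:18049611-18049711): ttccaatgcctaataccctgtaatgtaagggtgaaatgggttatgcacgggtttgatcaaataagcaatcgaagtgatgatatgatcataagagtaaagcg
stumps, 420 bp upstream of an internal TSS (chr3R:14591150-14591250): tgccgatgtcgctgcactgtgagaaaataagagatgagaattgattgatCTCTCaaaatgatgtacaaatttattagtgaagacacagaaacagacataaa
stumps, 218 bp upstream of the same TSS (chr3R:14591352-14591452): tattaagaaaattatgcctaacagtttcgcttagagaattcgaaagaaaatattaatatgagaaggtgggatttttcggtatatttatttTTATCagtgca
mbc, 172 bp upstream of its TSS (chr3R:23781543-23781643): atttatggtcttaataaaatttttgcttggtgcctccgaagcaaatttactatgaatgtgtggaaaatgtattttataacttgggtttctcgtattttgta
stumps, 1926 bp upstream of its most upstream TSS (chr3R:14575241-14575341): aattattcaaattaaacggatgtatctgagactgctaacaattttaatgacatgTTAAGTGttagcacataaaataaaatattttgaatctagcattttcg
mbc, 8779 bp upstream of its TSS (chr3R:23772936-23773036): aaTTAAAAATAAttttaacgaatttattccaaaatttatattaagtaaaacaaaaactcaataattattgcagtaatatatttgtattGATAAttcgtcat
bin, 1441 bp upstream of its TSS (chr3L:6989131-6989231): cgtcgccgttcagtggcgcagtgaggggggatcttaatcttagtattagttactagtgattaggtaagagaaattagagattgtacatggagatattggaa
nau, 4632 bp upstream of its TSS (chr3R:23722939-23723039): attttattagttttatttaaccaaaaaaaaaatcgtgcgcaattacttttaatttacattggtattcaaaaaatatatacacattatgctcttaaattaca
lmd, 1998 bp upstream of its most upstream TSS (chr3R:23028661-23028761): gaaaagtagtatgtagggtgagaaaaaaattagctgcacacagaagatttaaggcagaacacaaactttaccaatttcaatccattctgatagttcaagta
how, 7112 bp downstream of its TSS (chr3R:22049253-22049353): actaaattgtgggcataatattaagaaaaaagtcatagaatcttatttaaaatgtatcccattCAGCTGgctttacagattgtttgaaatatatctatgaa

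The location of the summits around each gene is drawn to scale in the map of reproducible summits. Each peak has a signal value, a score given by the authors' peak caller, and a rank by that score within its list. Signals are quoted as deposited and were used to order regions within 1 list, since their scale differs between lists. The reproducible set holds the 3670 regions of highest signal of the pooled list, so a pooled rank can reach 3670. A region among the 3670 of highest signal in a replicate's own list is called a top region of that replicate. No list gives read counts, so the depth of the replicates is unknown.

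**Figure D1:**
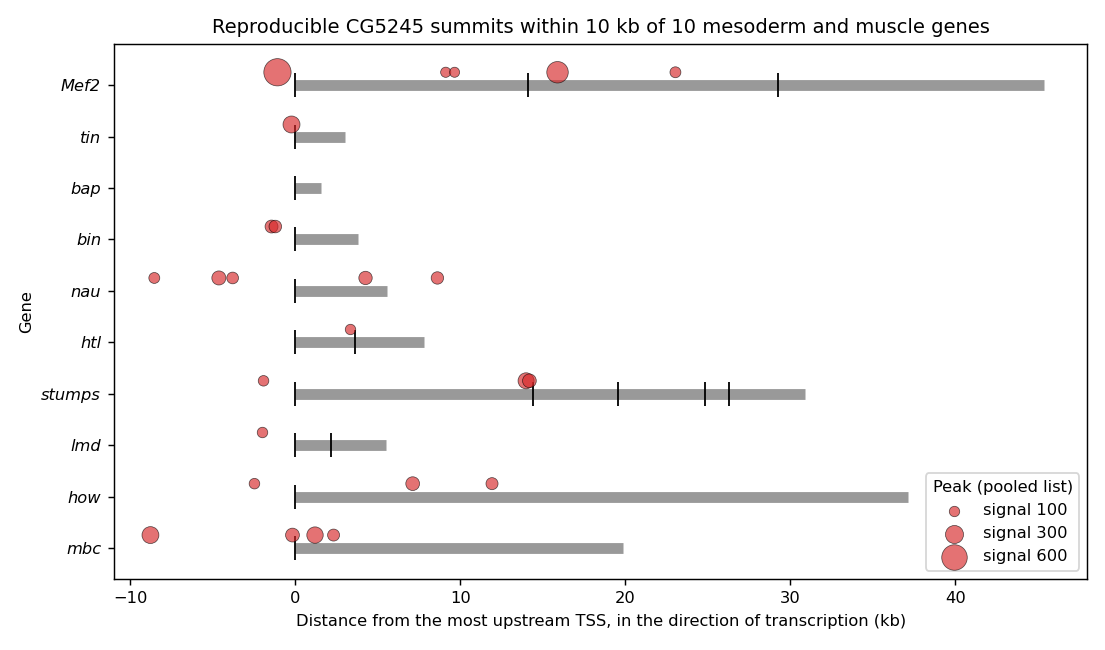
Reproducible CG5245 summits (red points, area proportional to the pooled signal) within 10 kb of each gene, by distance in kb from the gene's most upstream TSS in the direction of transcription. Grey bars are the genes and black ticks their annotated TSSs. The largest points are in the row of Mef2, and the largest of them lies 138 bp from the TSS of Pal1. Near nau there are 5 summits, inside the gene and on both sides of it, all nearer to the TSS of a neighbour. The gene bap has none.

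Mef2 had the strongest peaks near any of the 10 genes. Mef2 (FBgn0011656) lies on 2R from 9913496 to 9958858 on the minus strand, and its 11 annotated transcripts start at 3 TSSs. The strongest peak, on 2R from 9959711 to 9960100, had a pooled signal of 684.9 and rank 59. Its rank was 99 in replicate 1, 25 in replicate 2 and 68 in replicate 3, so it stood near the head of every list. The summit at 9959940 lay 1082 bp upstream of the most upstream TSS of Mef2, outside the promoter window. It was nearer to a neighbouring gene: 138 bp from the TSS of Pal1, which encodes a peptide-amidating lyase, inside that gene and also within 500 bp of a TSS of Pdrg1.

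The second peak of Mef2, from 9942848 to 9943089, lay in an exon of the gene, 1795 bp downstream of the middle TSS. Its pooled signal was 425.0 with rank 190, and its ranks in replicates 1, 2 and 3 were 175, 216 and 216 (202.3 ± 23.7, SD, n = 3). No other gene had a TSS within 500 bp of it, and the SD of its ranks was the smallest among the peaks with a candidate in every replicate. The remaining 3 peaks were intronic and weak, with pooled signals of 110.0, 95.8 and 93.8. Their summits lay 6210 bp upstream of the TSS from which 8 of the transcripts start, and 4980 and 4444 bp upstream of the middle TSS. Each was a top region in 2 of the 3 replicates, and replicate 3 had no candidate that overlapped the weakest. Counted instead as top regions shared by the other replicates, Mef2 had 3 summits within 10 kb without replicate 2, and 4 without replicate 1 or replicate 3. Replicate 1 listed 2 summits in 1 region at the strongest peak, from 9959736 to 9960087. Both are in the counts without replicate 2 and without replicate 3, so those counts exceed the number of separate regions. At the TSSs of Mef2 the pooled list held 1 candidate within 500 bp, 78 bp from the middle TSS, with a signal of 45.3 and rank 10643, far below the reproducible set.

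The promoter of tin carried 1 peak, narrow in the pooled list alone, that was placed alike in the 3 replicates. The gene tin (FBgn0004110, 3R from 21378977 to 21381970, plus strand) has 1 TSS. The peak, from 21378697 to 21378816, was 120 bp wide and had a pooled signal of 265.6 with rank 603. The summits of replicates 1, 2 and 3 lay 7, 2 and 1 bp from the pooled summit. The signals were 129.7, 71.0 and 54.8 and the ranks 378, 951 and 1087 in replicates 1, 2 and 3 (805 ± 376, SD, n = 3). It was therefore a top region of every replicate, and no other protein-coding gene had a TSS within 500 bp of it. The next candidate within 10 kb of tin, 5379 bp upstream of the TSS, had a pooled signal of 86.1 and rank 4086, below the reproducible set.

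The adjacent gene bap had no reproducible summit. It lies on 3R from 21388880 to 21390449 (FBgn0004862), a short distance downstream of tin in the NK homeobox cluster. The nearest reproducible summit was the one at the tin promoter, 10155 bp from the gene and so just outside the window. The strongest pooled candidate within 10 kb had a signal of 53.5 and rank 8179. In replicate 1 the best candidate near bap ranked 7305 and in replicate 2 it ranked 13819, and replicate 3 had none within 10 kb. No list had a candidate within 500 bp of the TSS of bap, which does not show that the protein is absent there, since the depth is unknown.

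The FGF genes stumps and htl had promoter summits at internal TSSs, and none at their most upstream TSS. The adaptor gene stumps (FBgn0020299, 3R from 14577217 to 14608079, plus strand) has 5 TSSs. A pair of overlapping peaks, from 14591002 to 14591397 and from 14591204 to 14591599, lay 420 and 218 bp upstream of the TSS of the transcript stumps-RE, in an intron of the longer transcript. Their pooled signals were 237.1 (rank 765) and 173.7 (rank 1394). The candidate of each replicate nearest to the stronger summit ranked 1135, 451 and 1002 in replicates 1, 2 and 3 (863 ± 363, SD, n = 3). The candidates nearest to the weaker summit ranked 2152, 1447 and 2613. Both were thus top regions in each replicate. At the most upstream TSS of stumps the pooled list held a candidate of signal 31.5 and rank 19916. Another reproducible peak lay 1926 bp upstream of that TSS inside CG7987, with a signal of 103.0, rank 3143 and top regions in 2 replicates.

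The receptor gene htl (FBgn0010389, 3R from 18045216 to 18052984, minus strand) had a promoter call that rested on weak and uneven values. Its peak, from 18049463 to 18049858, lay 295 bp upstream of the internal TSS shared by htl-RA and htl-RC. The pooled signal was 100.8 and the rank 3243, in the lower part of the reproducible set. The strongest overlapping candidate ranked 4229 in replicate 1, 5864 in replicate 2 and 1397 in replicate 3 (3830 ± 2260, SD, n = 3). It was a top region in replicate 3 alone. Top regions shared by the other replicates therefore gave no promoter call at htl, whichever replicate was left out. That follows from the ranks and adds nothing to them.

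At mbc, peaks lay at the promoter, in the first part of the gene and at a neighbour. The gene mbc (FBgn0015513, 3R from 23781765 to 23801634, plus strand) has 1 TSS. The promoter peak, from 23781395 to 23781790, had a pooled signal of 176.4 and rank 1347, and ranks of 1794, 1290 and 1226 in replicates 1, 2 and 3 (1437 ± 311, SD, n = 3). Its summit lay 172 bp upstream of mbc but 28 bp from a TSS of Nup98-96, a gene of the nuclear pore that starts beside it, so both genes share the peak. With each summit given to the gene of the nearest TSS alone, mbc lost its promoter call. A stronger peak lay in an intron, 1194 bp downstream of the TSS, with a signal of 248.0, rank 699 and replicate ranks of 986, 841 and 458. A weaker one lay 2318 bp downstream, with a signal of 132.5 and rank 2173. The strongest peak near mbc (263.1, rank 617) was 8779 bp upstream, 127 bp from the TSS of tst, which encodes an RNA helicase. All 4 peaks were top regions in each of the 3 replicates.

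**Figure D2:**
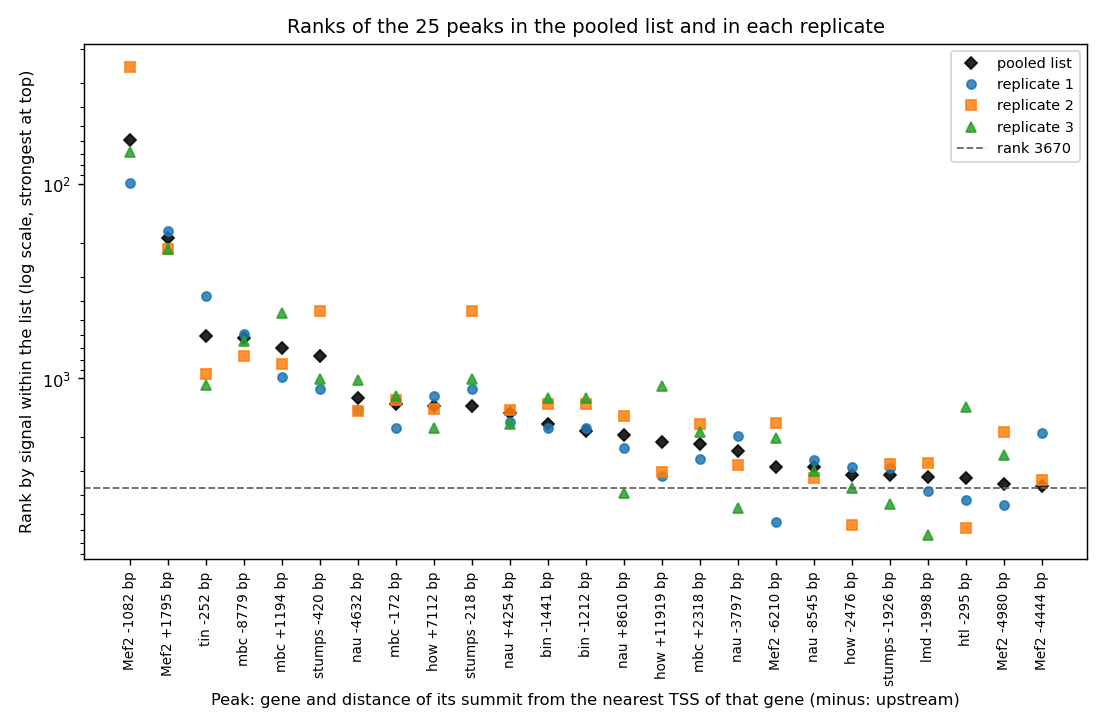
Rank by signal of the 25 reproducible peaks within 10 kb of the genes, in the pooled list (diamonds) and in replicates 1 to 3 (circles, squares, triangles), on a log axis with the strongest at the top. Each replicate point is the strongest candidate that overlaps the peak, and the dashed line is rank 3670. The 2 leading Mef2 peaks rank 216 or better in every list, and points fall below the line for 8 peaks; the weakest Mef2 peak has no point for replicate 3.

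The transcription factor genes bin, nau and lmd had peaks outside their promoters. At bin (FBgn0045759, 3L from 6990622 to 6994447, plus strand) a pair of overlapping peaks lay 1441 and 1212 bp upstream of the single TSS, with pooled signals of 154.2 and 146.3 (ranks 1716 and 1865). The strongest overlapping candidates ranked 1800, 1348 and 1261 in replicates 1, 2 and 3. The strongest summit of replicate 1 lay 5 bp from the farther pooled summit, whereas those of replicates 2 and 3 lay 23 and 10 bp from the nearer one. The nearest TSS to both summits was that of bin, and no gene contained them. Without replicate 1, the other replicates shared 1 top region within 10 kb of bin, and 2 without replicate 2 or replicate 3. Those 2 are overlapping regions of replicate 1 that meet 1 region of the other replicate.

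Near nau (FBgn0002922, 3R from 23712814 to 23718357, minus strand) there were 5 peaks, none of them nearest to the TSS of nau. Their pooled signals were 182.5, 165.2, 142.1, 126.1 and 109.9. The strongest lay 342 bp from the TSS of CG10365 and the third 411 bp from that of CG10301, so these 2 were promoter peaks of neighbours. The second, with ranks of 1673, 1452 and 1707 in replicates 1, 2 and 3 (1611 ± 139, SD, n = 3), lay in an intron of nau 4254 bp downstream of the TSS. The other 2 lay 3797 and 8545 bp upstream. Counted as top regions shared by the other replicates, nau had 3 without replicate 1 or replicate 2 and 5 without replicate 3. With each reproducible summit given to its nearest gene alone, nau had 1. The pooled list held no candidate within 500 bp of the TSS of nau.

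The gene lmd (FBgn0039039, 3R from 23021222 to 23026713, minus strand) had 1 weak peak, 1998 bp upstream of its first TSS and between genes. Its pooled signal was 101.8 and its rank 3203. The ranks of 3817, 2720 and 6418 in replicates 1, 2 and 3 made it a top region in replicate 2 alone, and no pair of replicates shared a top region within 10 kb of lmd. The summits of the replicates lay within 6 bp of the pooled one, so the position was alike where the rank was not.

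At how (FBgn0264491, 3R from 22042191 to 22079321, plus strand) 2 of the 3 peaks lay in introns and 1 upstream of the gene. The strongest, 7112 bp downstream of the TSS in an intron, had a pooled signal of 174.4 and rank 1384. It ranked 1231, 1442 and 1807 in replicates 1, 2 and 3 (1493 ± 291, SD, n = 3) and was a top region in each. The second intronic peak, 11919 bp downstream, had a signal of 134.2 and was also a top region in each replicate. Another peak, 2476 bp upstream, had a signal of 103.1 and was a top region in replicate 1 alone. At the TSS of how the best pooled candidate, 64 bp away, had a signal of 30.8 and rank 20674.

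Taking the genes by their summit positions, 12 of the 25 summits lay upstream of the gene, 11 in its introns, 1 in an exon and 1 downstream. The TSS nearest to the summit belonged to 1 of the 10 genes for 16 summits and to a neighbour for 9. By the location classes used for the whole reproducible set, 9 of the 25 (36.0%) lay within 500 bp of any TSS, against 49.0% of all 3670. Of these 9, 5 were at promoters of the 10 genes and 4 at promoters of neighbours alone. A further 10 (40.0%) were intronic, against 33.8%, and 5 (20.0%) intergenic, against 14.9%. The median pooled signal was 146.3 for the 25 peaks and 147.6 for the whole set. Top regions of all 3 replicates overlapped 16 of the 25 (64.0%) and 66.5% of the whole set, so signal and agreement among replicates were close to those of the set at large. Around the edge of the promoter window there were few summits: the widest promoter distance counted was 420 bp and the nearest one not counted was 1082 bp. The 10 kb window had a summit just beyond its edge at bap, 10155 bp from the gene.

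Promoter calls at tin, stumps and mbc were made in each replicate taken singly. Top regions gave a promoter summit to tin, stumps and mbc in replicates 1 and 2, where 16.5% and 15.4% of all protein-coding genes had one, and to those 3 and htl in replicate 3, where 15.1% had one. The mean was 3.33 ± 0.58 of the 10 genes, and 15.7% ± 0.728 of all protein-coding genes (SD, n = 3). Within 10 kb the counts of genes were 7, 8 and 8 in replicates 1, 2 and 3, against 56.6%, 55.8% and 55.8% of all protein-coding genes. Neither htl nor lmd had a top region within 10 kb in replicate 1, and bap had none in any replicate.

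**Figure D3:**
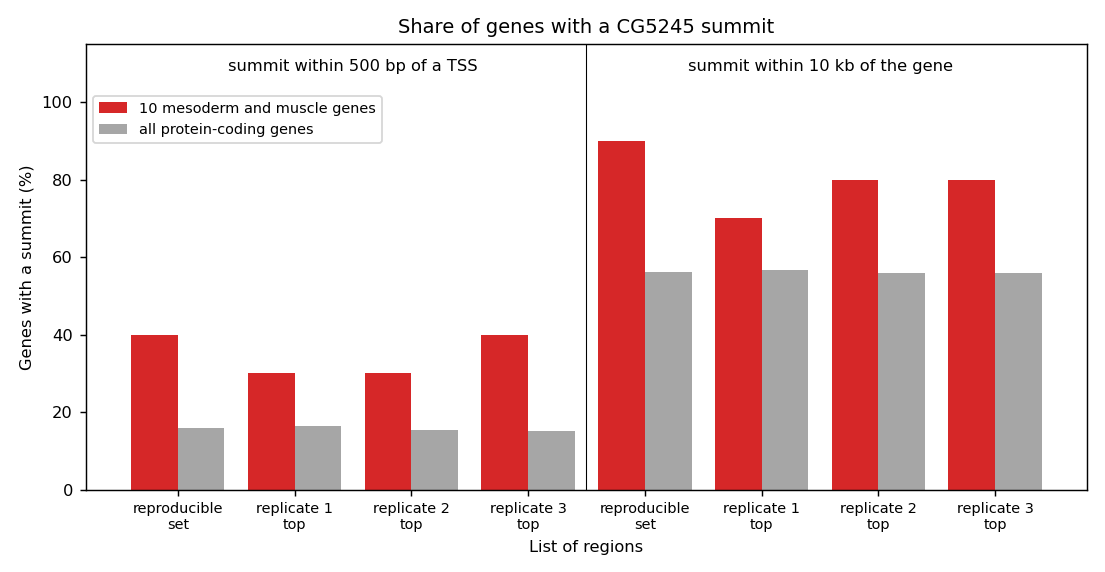
Share of genes (%) with a CG5245 summit within 500 bp of a TSS (left) or within 10 kb of the gene (right), for the 10 mesoderm and muscle genes (red) and all 13945 protein-coding genes (grey), in the reproducible set and in the top regions of each replicate. The bars of the 10 genes stand for 3 or 4 genes at promoters and 7 to 9 within 10 kb.

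Below the reproducible threshold candidates were common at these genes and in the genome. All 10 genes had a pooled candidate within 10 kb, as had 94.0% of protein-coding genes. Within 500 bp of a TSS, 6 of the 10 had a pooled candidate, namely the 4 with a reproducible summit and Mef2 and how, against 51.2% of protein-coding genes. In the candidate lists of replicates 1, 2 and 3 the counts were 8, 6 and 5 of the 10, against 53.1%, 50.3% and 45.7%. Those of replicates 1 and 2 added bin, and that of replicate 1 also nau, with ranks of 14405 to 23538. Of the 142 pooled candidates within 10 kb, 117 lay below the reproducible set. The strongest of these was near mbc, 10066 bp downstream of its TSS, with a signal of 86.1 and rank 4083. The weakest inside the set was the Mef2 peak of signal 93.8 and rank 3592. A candidate 494 bp upstream of the internal TSS of htl ranked 4551.

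The promoters closest in strength were found by the difference in pooled rank. The peak next above tin was at the shared promoter of CG14352 and Rab3GAP1 (1 rank away), and the next promoter peak below was shared by CG43293 and D19B (2 ranks). For stumps they were slv (1 rank) and CHES-1-like (4 ranks). For mbc they were Lip4 (3 ranks) and the pair Sps1 and conv (6 ranks). For htl they were Gnpnat (2 ranks) and the pair CG17734 and CG5214 (3 ranks). Rank says nothing about shared function.

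Other genes of mesoderm and muscle development were taken from 8 lists. Of these 71 genes, 8 (11.3%) had a reproducible summit within 500 bp of a TSS, beside the 15.8% of all protein-coding genes. Within 10 kb, 49 of the 71 (69.0%) had one, beside 56.2%. None of the 4 other early mesoderm genes and none of the 11 other heart genes had a promoter summit, although 3 and 8 of them had a summit within 10 kb. In the gut muscle list 1 of 7 had one, the T-box gene org-1, with a signal of 507.6 at rank 125 and 343 bp from the TSS. The same gene was the 1 of 14 in the muscle identity list. In the NK homeobox cluster around tin and bap, none of the 4 other genes had a promoter summit, and only C15 (signal 814.6, rank 36) had a summit within 10 kb. C15 was singled out after its values were seen.

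Among 15 other genes of myoblast fusion, 3 had a promoter summit. These were blow (195.6, rank 1109), rols (131.0, rank 2215), which encodes a scaffold protein of founder myoblasts, and WASp, an activator of actin branching, at 107.8 and rank 2937. The last was outside the rule for named genes. In the FGF list 2 of 12 other genes had one, the GTPase gene Ras85D (134.9, rank 2107) and bnl (122.0, rank 2461), which encodes the ligand of the tracheal FGF receptor. Within 10 kb, 8 of the 12 had a summit. In the tendon and attachment list 2 of 8 had a promoter summit, the integrin genes if (123.6, rank 2420) and mys (106.0, rank 3016). All 8 had a summit within 10 kb, beside 56.2% of all protein-coding genes. The counts within 10 kb were 9 of 15 in the myoblast fusion list, 7 of 14 in the muscle identity list and 6 of 7 in the gut muscle list.

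The 25 summits lay in DNA with a high share of A and T. In the 101 bp around the summit a mean of 67.6% of bases were A or T, and 58.0% in the windows 500 bp to either side. Over all 3670 reproducible summits the values were 64.4% and 56.3%. The summit was richer than the mean of its flanks at 18 of the 25 peaks (72.0%), against 75.0% of all peaks. The richest window, 84.2%, belonged to the peak beside tst, upstream of mbc, and the tin promoter summit had 81.2%. The poorest, 43.6%, was at the exonic peak of Mef2, whose flanks held 68.8%. A strong peak was thus found at each end of the range. The next poorest window, 51.5% with flanks of 63.4%, was at a weak Mef2 peak of pooled rank 3476. The peak in the intron of how 11919 bp downstream of the TSS (52.5%) was also poorer than its flanks (64.4%).

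**Figure D4:**
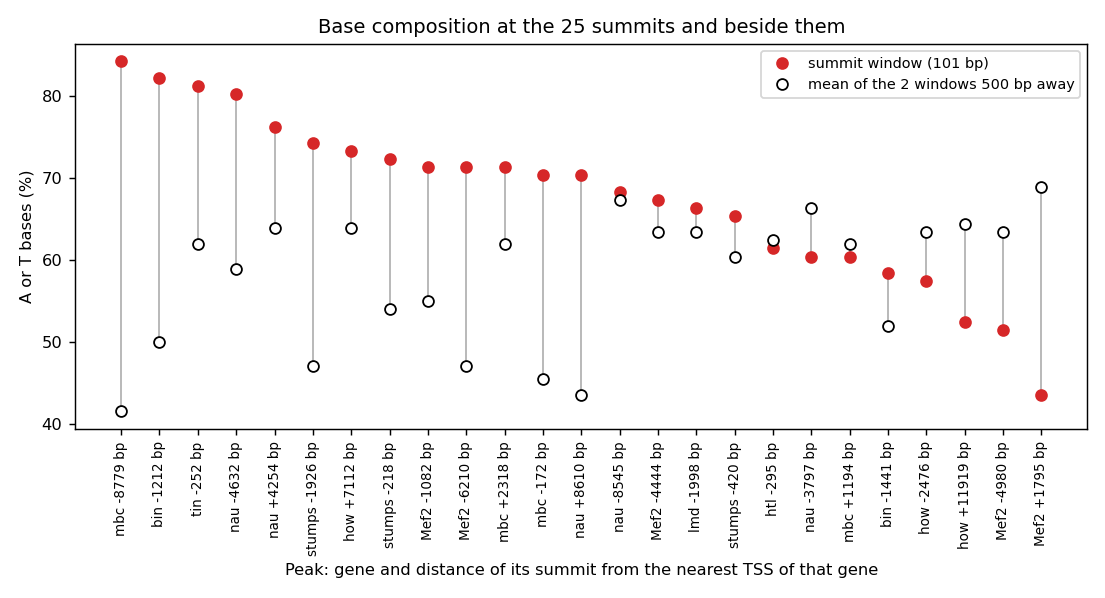
Percentage of A or T bases in the 101 bp around each of the 25 summits (red) and in the mean of the 2 windows 500 bp away (open circles), with the peaks ordered from richest to poorest. The summit lies above its flanks at 18 peaks, and the exonic Mef2 peak, at 43.6%, is the lowest.

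Both strands of the 101 bp around each summit were searched for 10 motifs. At least 1 was found in 12 of the 25 windows and none in 13, and 8 of the 10 motifs occurred at least once. The shares beside each count are those of all 3670 reproducible summits and of windows of the same size around the TSSs of protein-coding genes, in that order. GATAA, the core of GATA factor sites, was the most common, in 6 of the 25 (24.0%, beside 22.9% and 21.4%). It can overlap the motif CGATA, which is bound by the insulator protein BEAF-32 and occurred in 1 window (4.0%, beside 16.6% and 23.6%). The longer TATCGATA, the DNA replication-related element that contains it, occurred in none (beside 1.88% and 4.48%).

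Sites of the mesoderm factors searched were found in 0 to 2 windows each. The forkhead site GTAAACA was found in 2 windows (8.0%, beside 3.13% and 3.18%), 1 of them the weaker intronic summit of mbc, where it starts 7 bp from the summit. Of the NK homeobox sites, CACTTAA occurred in 1 window (4.0%, beside 2.62% and 1.24%), upstream of stumps. The other NK site searched was CACTTGA, which occurred in none (beside 1.63% and 1.70%). The E-box CAGCTG was found in 1 window (4.0%, beside 4.06% and 8.77%), in the intron of how. Another E-box, of the kind that Twist binds, is CATATG, found in 1 (4.0%, beside 3.90% and 2.08%). The MEF2 motif occurred in 1 (4.0%, beside 6.29% and 2.10%), at the peak beside tst, 8779 bp upstream of mbc. GAGAG, the site of the GAGA factor, occurred in 1 (4.0%, beside 10.2% and 12.7%), at the stronger stumps summit. With 25 windows, 1 match more or less moves a share by 4.0 percentage points.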

How the data were processed

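Regions bound by CG5245-GFP were measured by ChIP-seq in 3 biological replicates of 1 group; nothing was pooled beyond what the authors deposited. Candidate regions came from each replicate and from all of them together, always with a control, and the reproducible set (IDR) was made from those lists on dm6, as the authors' accompanying text files state. The signal of a region and its −log10 q value are the authors' values as deposited. Which aligner and caller were run is not given in the sources used here. Chromatin was sheared to 200 to 800 bp, per the labels. The pooled list and those of replicates 1 and 2 held 30000 regions each, and that of replicate 3 held 29608. The dm3 lists were not used.

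Summits (region start plus offset) were assigned to genes of Ensembl release 115, whose coordinates lie within the chromosome arms of the Release 6 genome. The group was not compared with another, so no significance test was made: counts stand beside the share of all protein-coding genes called by the same rule. Genes within a window share peaks and are not replicates. The code that makes the promoter call was checked on simulated summits at known distances from a TSS. A value with SD is over 3 replicates, which the labels give as biological. The named genes were the 10 members, up to 2 occupied genes of highest signal in each list, rank neighbours, and genes that share or lie nearest to a peak. The members and lists were chosen with earlier results of these data known. Older symbols were matched through RefSeq synonyms. Python 3.11.15, pandas 2.3.3 and numpy 2.4.6 were used. Alternatives covered the threshold, window, assignment, overlap and replicates.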

Additional observations from a re-analysis of the deposited data

How the results depend on the processing

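The count of 4 genes with a promoter summit was 2 with a window of 250 bp (stumps and mbc; 12.5% of all protein-coding genes) and 2 with the most upstream TSS alone (tin and mbc; 14.0%), a choice made after the data were seen. Taking the nearest TSS alone gave 3 (11.6%), as did top regions of all 3 replicates (10.7%) and the stronger 50% of the set (8.60%). The widest promoter window tried gave 4 (18.5%). Here and below, a count without 1 replicate is of top regions shared by the other replicates, and the reproducible set was not made again. By that rule the count of genes with a promoter summit was 3 without any 1 replicate (11.8% to 12.5%). The 9 genes with a summit within 10 kb were 6 in gene bodies alone (9.85% of all protein-coding genes) and 7 with the upper 50% of peaks (38.1%) or top regions of all 3 replicates (44.2%). They were 9 with 5 kb (42.1%) or the nearest gene alone (17.9%), and 7 without any 1 replicate (47.4% to 48.9%). The 10 genes are longer than most (median 6656.5 bp, against 2166 bp for all protein-coding genes). The shares in gene bodies and by nearest gene were not matched for length. The 25 summits within 10 kb were 12 with the upper 50% of peaks by signal, 16 with top regions of all 3 replicates, 12 in gene bodies alone and 16 with each summit given to its nearest gene. They were 17 to 21 without 1 replicate and 23 with overlapping entries merged. Where replicate 1 was kept, the count holds 2 summits of that replicate at the strongest Mef2 peak. Of the 25 peaks, 16 overlapped top regions of every replicate, beside 66.5% of all reproducible peaks. With an overlap of 50% of both regions the count was 11, beside 50.49%. With summits within 100 bp it was 14, beside 58.15%. The count of 6 genes with a pooled candidate at a promoter was 5 with the stronger 50% of candidates (39.1%) and 8, 6 and 5 in replicates 1, 2 and 3 (53.1%, 50.3% and 45.7%). The cause of these shifts was not tested. No paired analysis was possible because there is 1 group. Unknown depth limits what the weak peaks of htl and lmd can show.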
